A study of Arabidopsis thaliana with 16 samples.

Results

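Of 32833 genes counted in seedlings of Arabidopsis thaliana, 72 were higher in the mutant seu-6 than in the wild type Col-0 in every medium examined. A gene was taken into the set when the log2 ratio of the mean level in seu-6 to the mean level in Col-0 was 0.58 or more in each of 4 pairs of groups. Levels were counts scaled to the same total of gene counts in each library (CPM), and 1 CPM was added to both means. The rule left out 9 genes of salicylate signalling, 5 of which (PR1, BGL2, PBS3, SARD1 and WRKY54) would have met it. The set was therefore chosen on the difference between the genotypes, and that difference is described below with no test. In the opposite direction 110 genes met the same threshold.

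SEUSS (SEU) is a nuclear protein that binds no DNA itself and joins transcription factors to co-repressors of the LEUNIG family, best known from flower development. Salicylate is the hormone by which plants hold back pathogens that feed on living tissue. It acts through NPR1, a co-activator that works with TGA factors, which bind TGACG, and its targets include WRKY factors, secreted pathogenesis-related proteins and many receptor-like kinases of the cell surface.

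Poly(A) RNA was sequenced from whole seedlings of Col-0 and of seu-6, which is 1 mutant allele of SEU, in 2 experiments with 8 groups of 2 libraries labelled as biological replicates. Seedlings of 14 days were moved to liquid half-strength MS medium, either plain (the 15 min mock) or with 300 mM NaCl, and taken after 15 min. Seedlings of 10 days were moved to the plain liquid (the 6 h mock) or to the liquid with 250 mM sorbitol and taken after 6 h. All plants grew in long days.

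The 16 libraries held between 39756463 and 42676953 gene counts, and the replicates of a group correlated across genes at 0.998 to 0.999 (Pearson, log2 CPM) while differing by more than sampling noise. The excess was largest in the seu-6 6 h mock, with a mean chi-square per gene of 8.95 against 3.31 to 4.68 in the other groups. SEU lay between 38.6 and 59.0 CPM in the 8 Col-0 libraries and between 0.409 and 1.07 CPM in the 8 seu-6 libraries. Markers of shoot summed to between 66920 and 91400 CPM and those of root to between 85.4 and 214 CPM, so both organs were present. Shoot markers summed to 66920 to 67770 CPM in seu-6 against 78810 to 81190 CPM in Col-0 in the 6 h mock. With sorbitol they summed to 81740 to 82570 against 90030 to 91400 CPM. In the 15 min mock they were higher in seu-6, at 89560 to 90220 against 86040 to 86830 CPM. They were higher with NaCl too, at 83830 to 87480 against 81220 to 82520 CPM. Root markers summed to 151 to 158 CPM in seu-6 against 205 to 214 CPM in Col-0 in the 15 min mock. With NaCl root markers summed to 85.4 to 87.4 against 134 to 138 CPM. The part of these shoot and root differences in the results was not tested. Transcripts of 12 seed markers summed to 193 and 194 CPM in the seu-6 6 h mock, to 2.63 and 2.80 CPM in the Col-0 6 h mock and to at most 8.93 CPM in any other library. Their part in the results for the 6 h mock was not tested either. No seed marker belonged to the set. At sums of at most 2.98 CPM in the 15 min experiment few could have met the rule, so their absence tells little.

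Of the 72 genes 70 encode proteins and 2 (AT1G67105 and AT2G01422) are noncoding RNAs, and 30 have no name beyond the locus. Chromosomes 1 to 5 held 16, 11, 21, 13 and 11 of them, where the counted loci divided as 26.6%, 15.9%, 19.8%, 15.1% and 22.6%. In 2 cases members were directly adjacent, PCC1 beside AT3G22235 and CRK6 beside CRK7. AT3G28510 and AT3G28540 had 2 coding genes between them. LURP1 had 1 coding gene between it and PR1, and BG3 had 1 between it and BGL2, both left out by the rule. A locus on the opposite strand overlapped 13 members, among them RLP23 and CYP71A13, and counts of such pairs are uncertain because the strand setting of the counting is not given in the sources used here. Counts are also uncertain for members with close copies, such as AT3G48080 (copy AT3G48090), CRK6 and CRK7, the receptor-like proteins, PCC1 and AT3G22235, and NIT2.

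The 250 bases before the annotated start of the 70 coding members were searched on both strands for 7 kinds of motif in the RefSeq genome of build TAIR10.1. The letters TGACG were present in 29 windows (41.4%), against 18.6% of the windows of 27443 counted coding genes. At least 2 matches were found in 14.3% of the members' windows and in 3.21% of all windows, where the palindrome TGACGTCA counts as 2 overlapping matches. The W-box, the site of WRKY factors, searched as TTGACC and TTGACT, was present in 28 windows (40% against 28.4%). CACGTG was found in 2 windows (2.86% against 6.49%), CCGAC in 7 (10% against 11.97%), GCCGCC in 1 (1.43% against 1.87%), ACGCGT or CCGCGT in 3 (4.29% against 3.38%) and AAAATATCT in 2 (2.86% against 2.36%). These shares are descriptions of letters in a window and say nothing of binding. RLP23 and CRK6, for example, had 2 W-boxes and no TGACG each.

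The 6 windows with at least 3 matches to TGACG are shown to let the repeats be seen, 5′ to 3′ toward the gene, with each TGACG or its complement CGTCA in capitals. They lie at chr2:11233389-11233638 (minus strand) for ARD3, an enzyme of methionine salvage, chr3:7855815-7856064 (minus) for AT3G22235, chr1:6927486-6927735 (plus) for AT1G19960, chr3:7846834-7847083 (minus) for PCC1, chr4:14400199-14400448 (minus) for AT4G29200 and chr5:25907997-25908246 (plus) for WRKY51. No window overlapped another annotated locus.
ARD3: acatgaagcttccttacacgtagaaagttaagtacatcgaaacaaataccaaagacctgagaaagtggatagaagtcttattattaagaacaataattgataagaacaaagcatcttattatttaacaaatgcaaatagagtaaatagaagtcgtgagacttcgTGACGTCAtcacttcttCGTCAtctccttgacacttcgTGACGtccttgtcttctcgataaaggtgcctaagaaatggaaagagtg
AT3G22235: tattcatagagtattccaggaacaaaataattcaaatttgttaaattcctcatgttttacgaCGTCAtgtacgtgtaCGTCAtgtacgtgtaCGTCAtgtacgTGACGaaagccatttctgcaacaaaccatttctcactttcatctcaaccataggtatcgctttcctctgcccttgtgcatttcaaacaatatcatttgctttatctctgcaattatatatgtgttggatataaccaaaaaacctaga
AT1G19960: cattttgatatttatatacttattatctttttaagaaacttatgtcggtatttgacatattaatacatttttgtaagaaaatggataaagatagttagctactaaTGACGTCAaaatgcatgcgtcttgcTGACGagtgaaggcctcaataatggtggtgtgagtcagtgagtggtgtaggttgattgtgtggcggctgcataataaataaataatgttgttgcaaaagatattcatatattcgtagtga
PCC1: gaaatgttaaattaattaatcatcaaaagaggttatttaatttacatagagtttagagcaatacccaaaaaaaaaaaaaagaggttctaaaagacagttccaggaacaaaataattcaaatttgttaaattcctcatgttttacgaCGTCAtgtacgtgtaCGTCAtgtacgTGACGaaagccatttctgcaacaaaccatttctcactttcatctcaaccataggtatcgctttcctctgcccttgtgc
AT4G29200: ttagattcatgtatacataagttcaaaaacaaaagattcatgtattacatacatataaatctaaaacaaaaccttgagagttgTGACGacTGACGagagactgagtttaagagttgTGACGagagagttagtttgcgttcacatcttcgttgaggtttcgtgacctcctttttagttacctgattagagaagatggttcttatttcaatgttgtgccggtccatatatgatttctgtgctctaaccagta
WRKY51: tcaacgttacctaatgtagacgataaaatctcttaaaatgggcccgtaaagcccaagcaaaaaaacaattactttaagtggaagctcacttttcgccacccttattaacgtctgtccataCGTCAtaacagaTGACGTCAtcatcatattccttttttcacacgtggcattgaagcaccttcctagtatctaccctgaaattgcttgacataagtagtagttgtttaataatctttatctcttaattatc
ARD3 and AT3G22235 had 4 matches and the other windows 3. The windows of the adjacent genes PCC1 and AT3G22235 shared an identical run of 105 bases that holds repeats of the motif. None of the 6 windows held a W-box.

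**Figure D1:**
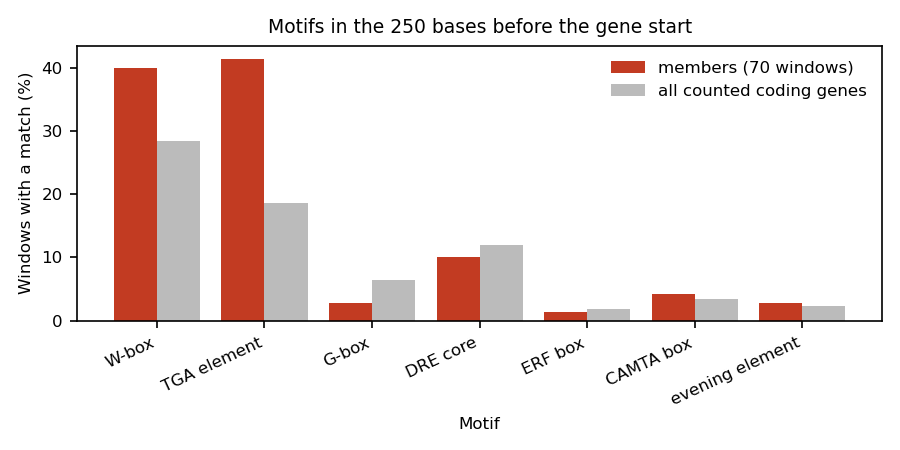
Share of 250-base windows before the gene start (y axis, %) that hold each of 7 motifs (x axis) on either strand, for the 70 coding members (red) and for all 27443 counted coding genes (grey). The bar for the TGA element (TGACG) stands at 41.4% against 18.6%, and that for the W-box at 40% against 28.4%. ERF box is GCCGCC and CAMTA box is ACGCGT or CCGCGT.

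Across the set, both seu-6 libraries lay above both Col-0 libraries in 4 of 4 pairs for all 72 genes. The rule used these contrasts, so this is stated beside the background only, which was 6.86% of the 20325 genes with a mean of 0.5 CPM or more. Of those genes 0.379% reached the threshold of 0.58 in 4 of 4 pairs, and the shares in single pairs were 1.33% for the 15 min mock, 1.98% for NaCl, 3.34% for the 6 h mock and 4.03% for sorbitol. In whole seedlings, more RNA per cell and more cells of a type that express a gene cannot be told apart.

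The summed level of the 72 genes was 2043 and 2035 CPM in the Col-0 libraries of the 15 min mock and 4071 and 3957 CPM in those of seu-6. Under NaCl the sums were 1790 and 1780 CPM in Col-0 and 4032 and 4069 CPM in seu-6. In the 6 h mock they were 599 and 580.0 CPM against 1659 and 1695 CPM, and under sorbitol 900.3 and 928 CPM against 2333 and 2324 CPM. The seu-6 6 h mock, the lowest group of the mutant, thus stayed below the Col-0 15 min mock, and the groups of the 15 min experiment held more of these transcripts than the matching groups of the 6 h experiment.

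The median log2 ratio of seu-6 to Col-0 over the set was 0.98 for the 15 min mock, 1.20 for NaCl, 1.20 for the 6 h mock and 1.32 for sorbitol, where all genes had medians of -0.04, -0.04, -0.01 and 0.02. The ratio was smallest in the 15 min mock for 40 members and largest under sorbitol for 30. It was larger under NaCl than in its mock for 61 members and larger under sorbitol than in its mock for 42. These counts were not made over all genes and compare the ratios that the rule used. The added 1 CPM also makes ratios smaller at low levels, so the counts do not rank the media. In 17 members the ratio was 1 or more in all 4 pairs. The members nearest to the threshold were HO3 (a heme oxygenase, 0.581), LHT7 (0.587) and RLP34 (0.599), each in the 15 min mock. Just outside lay AT5G26010 (0.576 in the 15 min mock), AT1G62290 (0.571 under sorbitol) and AT1G52100 (0.5705 in the 6 h mock).

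**Figure D2:**
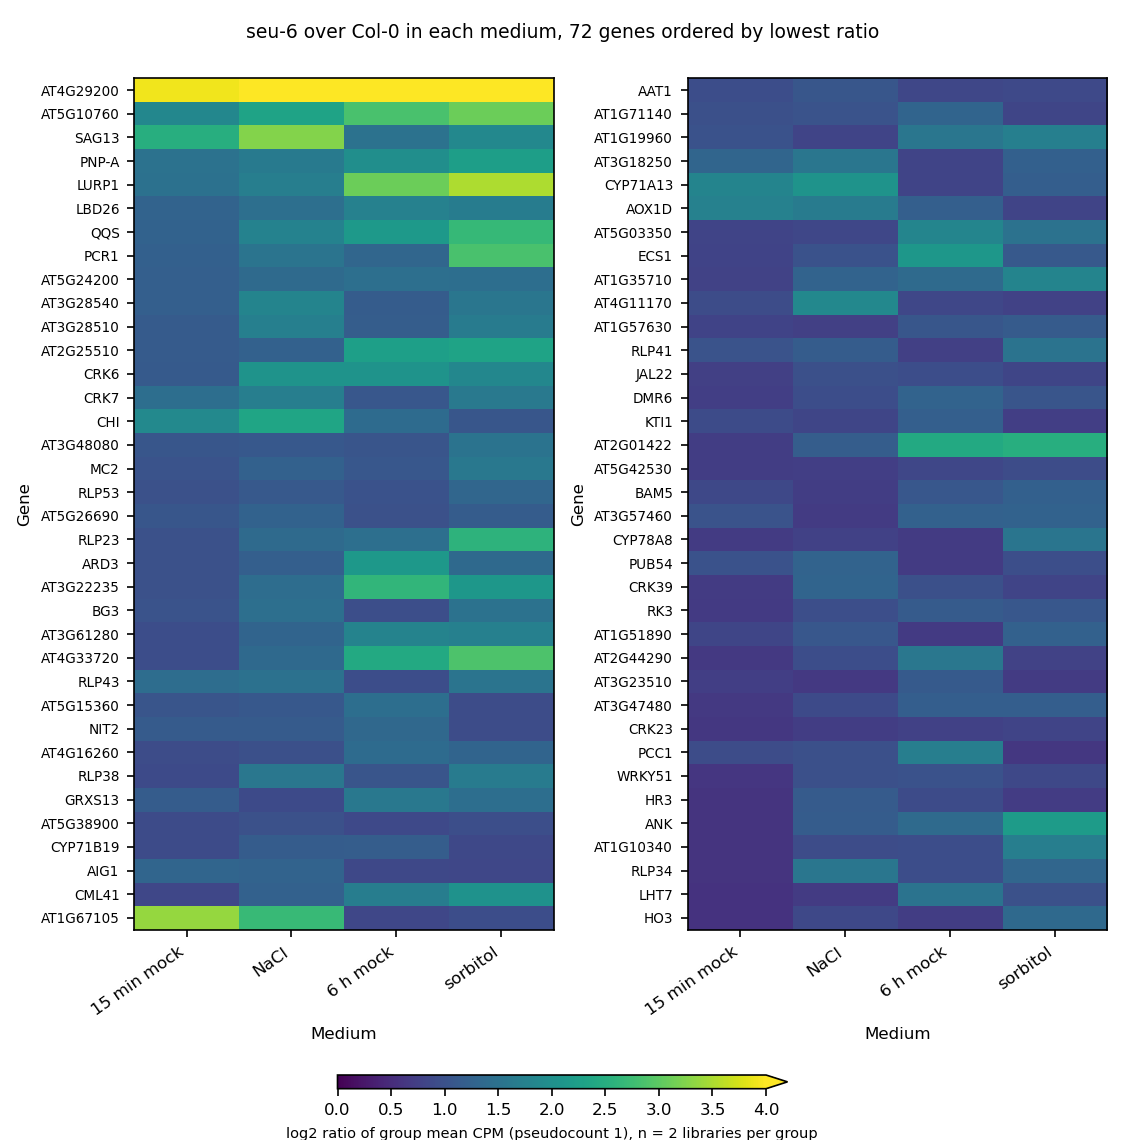
The log2 ratio of the seu-6 mean to the Col-0 mean CPM (colour, with 1 CPM added, 2 libraries per group) for each of the 72 genes (rows, ordered by their lowest ratio from the top left to the bottom right) in 4 media (columns). The 15 min mock column is the darkest, with a median of 0.98, and AT4G29200 passes the top of the colour scale at 4 in 3 of the media.

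The gene with the largest ratios was AT4G29200, annotated as a beta-galactosidase-related protein, which was close to an on and off difference. The Col-0 libraries had 0 counts in the 15 min mock, the 6 h mock and sorbitol, and 4 and 2 counts under NaCl. The seu-6 libraries stood at 14.9 and 13.3 CPM (15 min mock), 19.9 and 19.1 CPM (NaCl), 35.2 and 35.4 CPM (6 h mock) and 25.8 and 30.7 CPM (sorbitol). Against a floor of 3 counts over the Col-0 group, the level in seu-6 was at least 396.6-fold, 970.5-fold and 789-fold higher in the 15 min mock, the 6 h mock and sorbitol. Such floors cover counting error only. The noncoding RNA AT2G01422 was also at 0 counts in the Col-0 6 h mock and at 4.28 and 4.53 CPM in that of seu-6, at least 121.0-fold higher. In the other media its Col-0 libraries had between 0 and 8 counts. The noncoding RNA AT1G67105 differed most in the 15 min experiment, with 1.75 and 1.62 CPM in Col-0 and 25.7 and 27.8 CPM in seu-6 in the 15 min mock, against 1.96 and 1.20 CPM and 3.56 and 3.76 CPM in the 6 h mock.

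Among the genes of salicylate signalling and systemic resistance that the rule did not leave out, 6 of 34 were members. They were AT5G10760 (AED1, an apoplastic protease-like protein that depends on EDS1), LURP1 (needed for defence against an oomycete), DMR6 (an enzyme that hydroxylates salicylate and so removes it), PCC1 (a small pathogen-induced membrane-linked protein), AT5G03350 (a legume-type lectin) and AT3G48080 (a copy of the immune regulator EDS1). Of the 34 genes 18 (52.9%) had a ratio above 0 in all 4 pairs and 3 (8.82%) had one below 0. Over all genes with a mean of 0.5 CPM or more, 15.0% were above 0 and 21.1% below 0 in all 4 pairs. Medians over the list were 0.19, 0.42, 0.47 and 0.45 in the 15 min mock, NaCl, the 6 h mock and sorbitol. The list was chosen with earlier results of these data known, so it is no independent evidence. The 9 genes left out by the rule had ratios from 0.27 to 4.22, with PR1 at 3.04, 4.22, 3.62 and 4.14 in the same order of media and EDS16, the main salicylate synthesis gene, at 0.29, 0.27, 0.30 and 0.51.

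AT5G10760 had 24.7 and 27.6 CPM in Col-0 and 102 and 93.3 CPM in seu-6 in the 15 min mock, and 18.6 and 21.1 CPM against 105.0 and 102 CPM under NaCl. In the 6 h experiment it had 2.52 and 1.99 CPM against 20.9 and 24.0 CPM in the mock, and 3.60 and 4.44 CPM against 43.8 and 40.2 CPM under sorbitol. Its seu-6 level in the 6 h mock was near the Col-0 level of the 15 min mock, and the genotypes did not overlap within any medium. LURP1 had 51.4 and 49.1 CPM in Col-0 and 144.5 and 142.5 CPM in seu-6 in the 15 min mock, and 46.8 and 46.7 CPM against 156 and 155 CPM under NaCl. LURP1 had 2.47 and 2.90 CPM in Col-0 and 30.5 and 30.8 CPM in seu-6 in the 6 h mock, and under sorbitol it stood at 4.44 and 3.59 CPM against 54.8 and 56.8 CPM. Its log2 ratio was thus largest in the 6 h experiment, at 3.10 in the mock and 3.50 under sorbitol against 1.71 under NaCl and slightly less in the 15 min mock. DMR6 differed less, with 51.6 and 51.4 CPM against 86.2 and 87.7 CPM in the 15 min mock and 35.7 and 38.5 CPM against 78.9 and 76.4 CPM under sorbitol.

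PCC1 and its neighbour AT3G22235, whose start regions share the repeats printed above, were close to 1 CPM or below it in Col-0 in the 6 h experiment. PCC1 had 18.2 and 15.9 CPM in Col-0 and 34.3 and 32.4 CPM in seu-6 in the 15 min mock, and 0.0958 and 0.123 CPM against 2.61 and 2.63 CPM in the 6 h mock. AT3G22235, a cysteine-rich transmembrane protein, had 29.8 and 34.0 CPM against 61.6 and 66.8 CPM in the 15 min mock, and 0.886 and 1.06 CPM against 10.8 and 11.6 CPM in the 6 h mock. In both genes even the higher seu-6 library of the 6 h mock was below every library of the 15 min mock.

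Receptors of the cell surface formed the most numerous family group, a grouping made after the members were seen. Receptor-like proteins, which carry leucine-rich repeats and no kinase domain, gave 6 members of 52 annotated coding loci (11.5%), and cysteine-rich receptor-like kinases gave 4 of 35 (11.4%), where the members made up 0.255% of all counted coding loci. RLP23, the receptor of a peptide found in many microbial NLP toxins, had 23.8 and 23.1 CPM in Col-0 and 49.2 and 46.1 CPM in seu-6 in the 15 min mock, and 20.7 and 20.7 CPM against 55.9 and 54.9 CPM under NaCl. RLP23 had 1.51 and 1.60 CPM against 6.45 and 5.61 CPM in the 6 h mock, and under sorbitol 2.58 and 2.07 CPM against 21.1 and 16.7 CPM. The sorbitol pair gave its largest log2 ratio, 2.58. RLP34, RLP38, RLP41, RLP43 and RLP53 had ratios between 0.60 and 1.67.

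CRK6 had 9.90 and 12.6 CPM in Col-0 and 24.7 and 26.7 CPM in seu-6 in the 15 min mock, and 11.02 and 9.76 CPM against 46.4 and 46.8 CPM under NaCl. In the 6 h mock it had 0.335 and 0.467 CPM against 4.80 and 4.89 CPM, and under sorbitol 3.40 and 2.76 CPM against 13.5 and 14.0 CPM. The seu-6 libraries under NaCl were the highest of all, while the Col-0 libraries under NaCl overlapped those of their mock. CRK7, CRK23 and CRK39 were members at lower levels, none above 9.22 CPM in any library. Of 41 cysteine-rich receptor-like kinases listed, 17 (41.5%, against 15.0% of all genes) had a ratio above 0 in all 4 pairs. Another 5 (12.2%, against 21.1%) had one below 0 in all 4 pairs. Among 22 other pattern receptors, co-receptors and wall-associated kinases, RLP23 was the 1 member. In that list 7 (31.8%) were above and 3 (13.6%) below 0 in all 4 pairs. The shares of both lists are built from the ratios that the rule used and include members, so nothing is read from them. None of 13 listed NLR genes was a member, and 3 of them (23.1%, against 15.0% of all genes) were above 0 and 0 below 0 in all 4 pairs. AT1G35710, a leucine-rich repeat kinase, was the most abundant receptor gene of the set with 122 and 121 CPM in Col-0 and 209 and 212 CPM in seu-6 in the 15 min mock. The receptor kinase genes RK3 and AT1G51890 had ratios between 0.68 and 1.24.

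Genes of intracellular signalling in the set included the NLR gene AT4G11170 (RMG1), the TIR gene AT1G57630 and HR3, a homolog of the mildew resistance protein RPW8, with ratios between 0.61 and 1.86. The ankyrin gene ANK (BDA1), which acts with a receptor-like protein in immunity, and AT1G10340 had ratios between 0.60 and 2.19. WRKY51 was the 1 member of 22 listed WRKY factors, of which 5 (22.7%, against 15.0% of all genes) were above 0 and 0 below 0 in all 4 pairs. It had 4.94 and 3.66 CPM in Col-0 and 7.62 and 6.81 CPM in seu-6 in the 15 min mock. The calcium sensors CML41 and AT3G47480 ranged from 0.66 to 2.03. LBD26, a LOB-domain transcription factor, had ratios of 1.27, 1.45, 1.76 and 1.68 at no more than 7.29 CPM. AIG1, first found as induced by the bacterial effector AvrRpt2, had 3.14 and 3.59 CPM against 9.78 and 9.77 CPM in the 15 min mock.

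Secreted and antimicrobial proteins held some of the most abundant members. CHI, a chitinase, had 11.04 and 9.91 CPM in Col-0 and 42.3 and 39.96 CPM in seu-6 in the 15 min mock, and 5.60 and 6.12 CPM against 33.6 and 34.8 CPM under NaCl. In the 6 h experiment CHI had 5.70 and 4.42 CPM against 15.6 and 14.6 CPM in the mock, and 24.3 and 30.3 CPM against 57.3 and 59.5 CPM under sorbitol. For CHI the ratio was thus smallest under sorbitol, where both genotypes were highest. AT4G16260, a glycosyl hydrolase, reached 271 and 300.6 CPM in the seu-6 6 h mock against 113.5 and 102 CPM in Col-0. AT4G33720, of the PR1-like CAP family, had 9.58 and 9.64 CPM in Col-0 and 54.1 and 58.2 CPM in seu-6 in the 6 h mock, above all libraries of the 15 min experiment. BG3, a glucanase, was lower, with at most 14.7 CPM. KTI1, a Kunitz protease inhibitor that limits cell death, had 139 and 139 CPM in Col-0 and 232 and 232 CPM in seu-6 under sorbitol.

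The highest levels in the set were those of ECS1, with a mean of 341.9 CPM over all libraries, followed by AT2G25510 at 249.7 CPM and AT5G42530 at 193 CPM, both uncharacterized. Per kilobase of exon these 3 also led the 72 genes, with 394, 329 and 322 CPM per kilobase, and KTI1 followed at 106 CPM per kilobase. ECS1 had 421.5 and 416 CPM in Col-0 and 741 and 716 CPM in seu-6 in the 15 min mock, and 377 and 375 CPM against 741 and 776 CPM under NaCl. ECS1 had 22.99 and 22.8 CPM against 104 and 102 CPM in the 6 h mock, and under sorbitol 102 and 103.5 CPM against 228 and 221 CPM. The Col-0 level under sorbitol equalled that of seu-6 in the mock to within 2 CPM. At the other end 34 members had a mean under 10 CPM, and 5 had a Col-0 mean under 1 CPM in all media. The median of the members' means was 10.8 CPM.

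**Figure D3:**
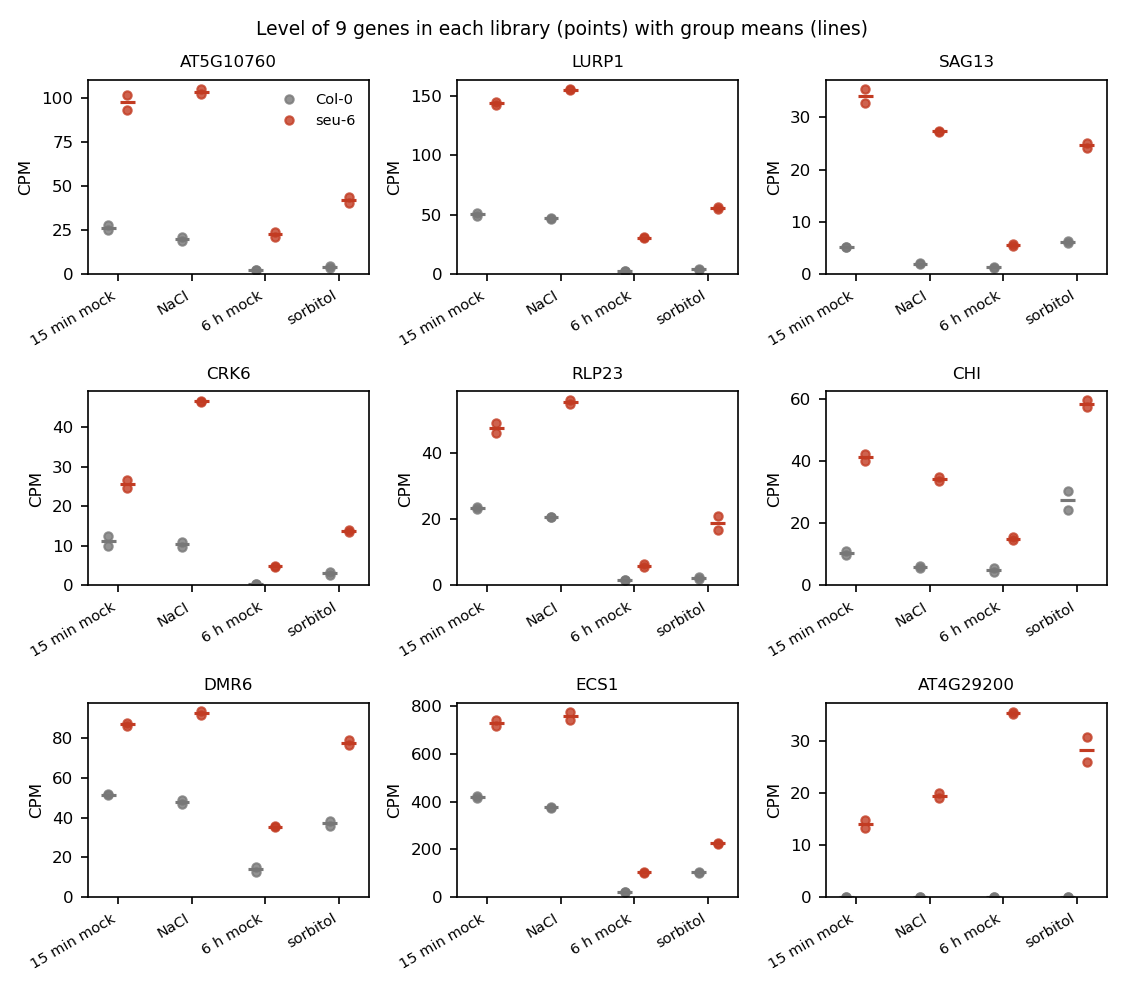
Level in CPM (y axis, linear from 0) of 9 members in each library (points, 2 per group) and the group mean (line), for Col-0 (grey) and seu-6 (red) in 4 media (x axis). In each panel and medium both red points lie above both grey points; for ECS1 in the 15 min mock the values are 741 and 716 CPM against 421.5 and 416 CPM.

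Genes of metabolism and cell death followed. SAG13, a short-chain dehydrogenase gene of leaf senescence and cell death, had 5.20 and 5.16 CPM in Col-0 and 35.4 and 32.7 CPM in seu-6 in the 15 min mock, and 1.88 and 2.04 CPM against 27.2 and 27.4 CPM under NaCl. In the 6 h experiment it had 1.39 and 1.23 CPM against 5.35 and 5.83 CPM in the mock, and 5.84 and 6.29 CPM against 24.2 and 25.2 CPM under sorbitol. Its log2 ratio was 2.50, 3.26, 1.51 and 1.86 in these media, and it was the 1 member among 11 listed senescence genes, of which 3 (27.3%, against 15.0% of all genes) were above 0 and 1 (9.09%, against 21.1%) below 0 in all 4 pairs. CYP71A13, which makes indole-3-acetonitrile for the antimicrobial camalexin, was the 1 member of 11 listed camalexin and indole glucosinolate genes, with ratios of 1.80, 2.05, 0.82 and 1.20. Of that list 3 genes (27.3%, against 15.0% of all genes) were above 0 and 0 below 0 in all 4 pairs. The NLR, WRKY, senescence and camalexin lists are small, and nothing is read from these shares. MC2, a metacaspase that restrains cell death, had 9.34 and 10.5 CPM against 22.3 and 19.98 CPM in the 15 min mock.

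Genes of small peptides and of transport completed the top of the list. PNP-A, a secreted plant natriuretic peptide of water and ion balance, had 6.37 and 5.04 CPM in Col-0 and 19.7 and 16.3 CPM in seu-6 in the 15 min mock, and 0.671 and 0.442 CPM against 5.77 and 4.48 CPM in the 6 h mock. PCR1, a membrane protein of cadmium resistance, had 31.5 and 31.6 CPM against 78.4 and 72.2 CPM in the 15 min mock, and 1.16 and 0.950 CPM against 12.6 and 15.2 CPM under sorbitol. QQS, an Arabidopsis-specific gene that affects the division of carbon and nitrogen between starch and protein, had 3.26 and 3.82 CPM against 9.75 and 10.06 CPM in the 15 min mock and 3.77 and 3.18 CPM against 27.5 and 27.8 CPM under sorbitol. The seu-6 level of QQS was higher in the 6 h experiment, whereas that of PNP-A and PCR1 was higher in the 15 min experiment. AT5G24200, a hydrolase, and the P-loop ATPase genes AT3G28540 and AT3G28510 had lowest ratios of 1.21, 1.17 and 1.16. The transporter genes AAT1, AT1G71140 and LHT7, the oxidase gene AOX1D, the P450 genes CYP71B19 and CYP78A8, GRXS13, AT5G38900 and PUB54 lay between 0.59 and 1.76. ARD3, AT1G19960, AT2G44290, AT3G18250, AT3G57460, AT3G61280, AT5G15360, AT5G26690, BAM5 and NIT2, which were not given ratios above, lay between 0.67 and 2.13.

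The lists of other processes held no member. Members made up 0.255% of all counted coding loci, so lists this short would rarely hold one. Nothing is therefore read from their absence. None of 24 floral MADS and flowering genes was a member, and 3 of them (12.5%) had a ratio above 0 and 6 (25%) one below 0 in all 4 pairs, near the 15.0% and 21.1% of all genes. None of 9 endoplasmic reticulum chaperones, 16 iron deficiency genes, 22 shoot markers, 18 root markers or 12 seed markers was a member. In these lists 3, 3, 3, 1 and 3 genes were above 0 in all 4 pairs, and 0, 0, 7, 4 and 1 were below 0. The median ratio of the seed markers was 3.60 in the 6 h mock.

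The NaCl and sorbitol responses and the difference between the mocks, each averaged over both genotypes, were not used by the rule. They were tested on all genes with edgeR's quasi-likelihood test and Benjamini-Hochberg adjustment, with calls at an adjusted p under 0.05. All 72 members passed the filter on low counts in the 3 fits. Values below are log2 fold changes ± standard error, on libraries scaled by TMM, whereas the CPM above are not scaled. The scaling matters most between the mocks, where the median of all genes was 0.22 on unscaled CPM and 0.00 after TMM, and shifted the NaCl and sorbitol medians from 0.07 and -0.10 to -0.02 and 0.00. The p-values rest on the spread between libraries that the labels call biological replicates, with each gene's variance moderated by those of all genes. Standard errors were computed from the fold change and its F statistic.

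NaCl for 15 min lowered more of the set than it raised. Of 72 members 38 fell and 5 rose, where 22.9% of the 22066 genes tested fell and 20.1% rose. The median of the members was -0.23, against 0.01 for all genes, and values ran from -1.19 to 2.48. JAL22, a jacalin-related lectin, had 185 and 185 CPM in Col-0 and 315 and 310.0 CPM in seu-6 in the mock, and 134 and 136.5 CPM against 273 and 262 CPM under NaCl. Both genotypes were lower under NaCl without overlap, and the mean response was -0.41 ± 0.022 (edgeR adjusted p = 1.5e-29). AT4G16260 fell by 0.48 ± 0.030, KTI1 by 0.47 ± 0.032, AT5G03350 by 0.61 ± 0.050 and SAG13 by 0.94 ± 0.088, with edgeR adjusted p values of 3.2e-25, 5.3e-23, 7.7e-19 and 5.7e-16. Members that rose were AT3G57460, annotated as a metallopeptidase (0.63 ± 0.12, edgeR adjusted p = 6.6e-06), CRK6 (0.29 ± 0.066, 0.00012), MC2 (0.28 ± 0.072, 0.00073), LBD26 (0.43 ± 0.17, 0.035) and AT4G29200 (2.48 ± 0.78, 0.0064). The last value rests on 6 counts in Col-0 against 0 in its mock, depends on the prior count, and had an edgeR adjusted p of 0.061 without replicate 1 of Col-0 under NaCl.

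In Col-0 and seu-6 taken singly, the NaCl response was below 0 in both genotypes for 43 members, above 0 in both for 9, and of opposite sign for 19, with DMR6 at 0.00 in 1 genotype. The median response was -0.31 in Col-0 and -0.05 in seu-6 (log2, TMM-scaled CPM with 1 CPM added). These values are built from the groups that the rule compared, so their difference was not tested. Signs and medians by genotype were not taken over all genes, so nothing is read from them. CRK6, for example, responded by -0.19 in Col-0 and 0.74 in seu-6.

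Sorbitol for 6 h raised most of the set. Of 72 members 44 rose and 17 fell, where 34.5% of the 21633 genes tested rose and 34.9% fell, and the median was 0.73 against -0.01 for all genes. ECS1, whose levels are given above, rose by 1.76 ± 0.031 (edgeR adjusted p = 4.7e-50). JAL22 rose by 1.15 ± 0.031, NIT2, a nitrilase, by 1.33 ± 0.037, DMR6 by 1.38 ± 0.047 and AT5G42530 by 0.89 ± 0.035, with edgeR adjusted p values of 1.5e-40, 7.6e-37, 1.1e-34 and 1.0e-31. Larger but less precise rises were those of BAM5, a beta-amylase (2.83 ± 0.16), CYP71A13 (2.47 ± 0.22), CRK6 (2.33 ± 0.14), CHI (2.30 ± 0.067) and SAG13 (2.28 ± 0.10), chosen after their values were seen. All 6 receptor-like proteins rose, from 0.61 ± 0.070 for RLP34 to 1.56 ± 0.18 for RLP38. All 3 P450 genes and both lectin genes rose as well, and 3 of 4 cysteine-rich receptor-like kinases did. Of the 3 TIR, NLR and RPW8-like genes 0 rose and 2 fell, AT4G11170 (-0.68 ± 0.20) and HR3 (-1.48 ± 0.24). The 4 glucanase, chitinase and PR1-like genes divided into 2 higher and 2 lower, and the 2 ankyrin genes into 1 and 1.

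The members that fell under sorbitol included genes of the same families as some that rose, such as CRK39 and AT1G51890. AT3G23510, a cyclopropane fatty acid synthase, had 21.98 and 22.2 CPM in Col-0 and 50.1 and 48.8 CPM in seu-6 in the 6 h mock, and 5.19 and 5.56 CPM against 8.48 and 10.2 CPM under sorbitol. It fell by 2.11 ± 0.065 (edgeR adjusted p = 2.7e-37), so that the seu-6 level under sorbitol was below the Col-0 level of the mock. LHT7, of a family of amino acid transporters, had 3.52 and 3.22 CPM against 10.9 and 12.1 CPM in the mock and 0.700 and 0.570 CPM against 2.52 and 1.97 CPM under sorbitol, a mean response of -2.27 ± 0.15 (edgeR adjusted p = 5.0e-21). MC2 fell by 1.51 ± 0.12, AT4G16260 by 0.62 ± 0.033 and AT4G33720 by 0.48 ± 0.060, with edgeR adjusted p values of 1.6e-15, 4.0e-18 and 2.0e-10. PCC1 and AT3G22235 fell too, by 1.16 ± 0.49 and 0.64 ± 0.16, the former at less than 1 CPM under sorbitol.

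The responses to NaCl and to sorbitol come from separate experiments with separate mocks. Of the members 23 were called lower under NaCl and higher under sorbitol, among them SAG13, CHI, ECS1, JAL22, KTI1, NIT2 and DMR6. The mean NaCl responses of those named ran from -0.94 for SAG13 to -0.125 for ECS1, -0.12 for NIT2 and -0.09 for DMR6. In seu-6 alone ECS1 responded to NaCl by -0.03 and DMR6 by 0.00 (TMM-scaled CPM with 1 CPM added). A further 11 fell in both, including PCC1, AT3G22235, AT4G16260 and AT4G33720. CRK6 rose in both, and MC2 rose under NaCl and fell under sorbitol. AT3G48080, AT2G01422, HO3 and QQS were called in neither. Joint calls were not counted over all genes, so nothing is read from the numbers in this paragraph.

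**Figure D4:**
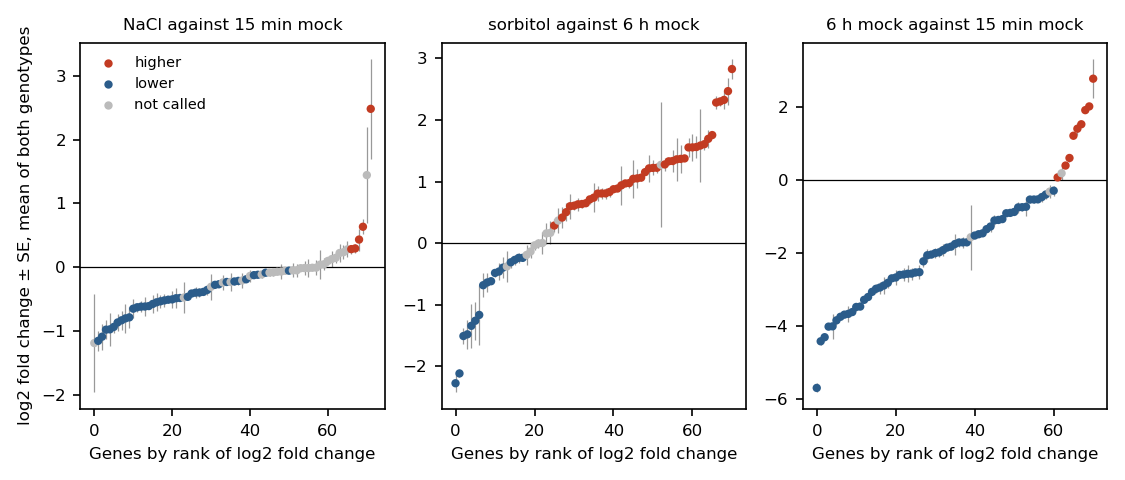
Mean response of both genotypes (y axis, edgeR log2 fold change ± SE, 8 libraries per fit) for each member, ranked by value along the x axis, to NaCl, to sorbitol and between the mocks. Points are red where higher, blue where lower and grey where the adjusted p was not under 0.05, and the blue points outnumber the red in the first panel (38 against 5) and the last (59 against 9), with 44 red against 17 blue in the middle. AT4G29200, with no Col-0 count in either group, has no usable error in the middle and last panels and is left out of them.

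The mock of 10-day seedlings kept for 6 h had lower levels of most members than the mock of 14-day seedlings kept for 15 min. Of 72 members 59 were lower and 9 higher, where 35.4% of the 21758 genes tested were lower and 36.3% higher, and the median was -1.73 against 0.02 for all genes. Age, time in the liquid and experiment cannot be told apart in this comparison, and it shares the 6 h mock libraries with the sorbitol response and the 15 min mock libraries with the NaCl response. ECS1 was lower by a log2 fold change of -3.74 ± 0.026 (edgeR adjusted p = 6.8e-59), AT2G25510 by -3.27 ± 0.028, AT5G42530 by -2.69 ± 0.029, AT1G35710 by -2.59 ± 0.034 and LURP1 by -3.46 ± 0.049, with adjusted p values of 6.1e-55, 1.0e-50, 3.5e-47 and 7.1e-46. The largest difference was that of PCC1, at -5.68 ± 0.12. All 6 members of the salicylate list, all 6 receptor-like proteins, all 4 cysteine-rich receptor-like kinases and the 3 other receptor kinases were lower.

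The 9 exceptions were higher in the 6 h mock. AIG1 had 3.14 and 3.59 CPM in Col-0 and 9.78 and 9.77 CPM in seu-6 in the 15 min mock, and 19.95 and 19.9 CPM against 38.1 and 36.4 CPM in the 6 h mock, a log2 fold change of 2.02 ± 0.075 (edgeR adjusted p = 2.2e-28). The Col-0 libraries of the 6 h mock thus lay above the seu-6 libraries of the 15 min mock. AT4G33720 (1.92 ± 0.080), AT3G23510 (1.53 ± 0.063), AT5G24200 (1.41 ± 0.17) and CML41 (1.22 ± 0.10) were higher as well, with edgeR adjusted p values of 2.6e-26, 1.6e-26, 2.3e-10 and 1.1e-14. AT5G15360, QQS, AT4G16260 and KTI1 completed the group, at 2.78 ± 0.53, 0.61 ± 0.096, 0.40 ± 0.038 and 0.08 ± 0.030. The value of AT5G15360 rests on 0 and 1 counts in the Col-0 libraries of the 15 min mock. With DESeq2 size factors 8 members were higher in place of 9.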

How the data were processed

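Poly(A) RNA of 16 whole-seedling libraries was measured, and the authors deposited 1 table of raw gene counts per library. HISAT2 2.2.1, HTSeq 0.13.5, DESeq2 and the build TAIR10 are named in the submitters' processing notes. How strand was handled and which annotation release served are not given in any source used here. The 5 summary lines of each table, 8.78% to 12.7% of its total, were left out of library sizes. Groups came from the labels.

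Counts were divided by the library's gene counts to give CPM, and the 72 members were chosen with 1 CPM added. The members, the gene lists and the family groups were chosen with earlier results of these data known, and the difference between genotypes was therefore not tested. Tests used edgeR 4.0.16 (R 4.3.3), quasi-likelihood with robust estimation, TMM scaling, filterByExpr by group and Benjamini-Hochberg adjustment over all genes, on 8 libraries per fit with 4 residual degrees of freedom. The script was tested on simulated data. Genes named are the 12 members with the largest lowest ratio, the 8 of highest mean CPM, members of 13 lists, up to 5 per direction and test (mean log2 CPM 2 or more), the 3 on each side of the threshold, SEU and the 9 genes left out. Others are named by family or where a count or extreme called for it, after their values were seen.

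Each test was repeated with DESeq2 1.42.0, with DESeq2 size factors, with no filter, with a replicate block, in 1 fit of all libraries and without each library in turn, and the rule was repeated with other settings. Names, neighbours and promoter letters came from the RefSeq genome and annotation of build TAIR10.1, in which 32548 of 32833 loci were found and 285 were not. Protein sequences are not shown.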

Additional observations from a re-analysis of the deposited data

Results flagged for a closer look

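In the cases below, the libraries of the 2 genotypes moved in opposite directions under a treatment, with no overlap between treated and mock libraries, both on unscaled and on TMM-scaled CPM. The difference was not tested, because the responses are built from the group means that chose the genes. How many of all genes behave in this way was not counted. With 2 libraries per group, nothing is read from the number of cases. Responses are log2 differences of group means with 1 CPM added, on TMM-scaled CPM.

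Under NaCl, 3 receptor-like proteins were lower than the mock in Col-0 and higher in seu-6. RLP34 responded by -0.61 in Col-0 and 0.36 in seu-6, a difference of 0.97. RLP38 responded by -0.50 and 0.17, a difference of 0.67, and RLP23 by -0.26 and 0.12, a difference of 0.39. The receptor kinase gene AT1G35710 responded by -0.28 and 0.21, a difference of 0.48. The NLR gene AT4G11170 responded by -0.33 and 0.60, a difference of 0.92, and HR3 by -0.28 and 0.26, a difference of 0.54. LURP1 responded by -0.20 and 0.02, a difference of 0.22, so its seu-6 level barely moved. QQS responded by -0.25 and 0.25, a difference of 0.50.

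Under sorbitol, QQS responded by -0.24 in Col-0 and 0.29 in seu-6, a difference of 0.53. The ankyrin gene AT1G10340 responded by -0.62 and 0.14, a difference of 0.76.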

How the results depend on the processing

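The number of genes meeting the rule depends on its constants. It was 72 as reported, 34 with a pseudocount of 5 CPM and 17 with a threshold of 1, and it ranged from 68 to 77 when each library was left out in turn. The other settings gave 100 genes with a pseudocount of 0.5 CPM, 79 on TMM-scaled CPM and 54 when the lowest seu-6 library was set against the highest Col-0 library. Without the 6 h mock pair, an alternative added after seed transcripts were seen in that seu-6 group, the rule gave 103 genes. All 72 were among them by construction, since 1 condition was dropped.

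The counts of members called stayed within 1.5 times under each alternative run. With each library left out in turn, NaCl gave 4 to 7 members higher and 35 to 40 lower, sorbitol 40 to 44 and 14 to 17, and the mocks 8 to 9 and 56 to 60. Replicate numbers did not pair the samples, with correlations of replicate differences between -0.06 and 0.06. With the replicate number as a block the members called were 5 higher and 38 lower under NaCl, 44 and 17 under sorbitol, and 9 and 58 between the mocks. In Col-0 libraries alone, also added later, sorbitol gave 37 and 13 and the mocks 7 and 58. The 397 alternative values cover named genes chosen by the smallest p in each direction, and not weaker calls such as LBD26 under NaCl. Of these values 396 kept direction and side of the threshold, which the choice of genes favoured. The other was AT4G29200 under NaCl, which lost its call without replicate 1 of Col-0 under NaCl (2.22, edgeR adjusted p = 0.061). Low counts limit PCC1 and CRK23 in the 6 h experiment, where Col-0 libraries held few counts. For AT5G15360 and AT2G01422 Col-0 libraries held few or no counts in both experiments.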
